A study of Rattus norvegicus with 6 samples.

Results

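HSP90 is an ATP-driven chaperone that completes the folding of many kinases, steroid receptors and other client proteins, and cochaperones load its clients, set the pace of its ATPase cycle and release the product. The genes described here were 10: Hsp90aa1 and Hsp90ab1, which encode the cytosolic chaperone, Hsp90b1, which encodes its endoplasmic reticulum paralog GRP94, and the cochaperone genes Stip1, Ahsa1, Ahsa2, Chordc1, Fkbp4, Cdc37 and Ptges3. They were found by symbol, each symbol matched 1 row, and they make up 10 of 25629 genes in the count tables. The genes were chosen from results of the naloxone against saline comparison of these data, so every naloxone value given here is a description and supports nothing by itself. Levels by cell class and by the sex of the nuclei were not used in that choice and were tested.

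In brain, HSP90 keeps receptors, kinases and synaptic proteins in an active shape. Hsp90ab1 is the constitutive form and Hsp90aa1 the form raised by stress through heat shock factor 1 (HSF1), a transcription factor that HSP90 itself holds inactive and that also drives several cochaperone genes. GRP94 folds secreted and membrane proteins and is under the control of the unfolded protein response.

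Nuclei came from the nucleus accumbens of Sprague-Dawley rats of 90 to 120 days, 6 male and 6 female. All 12 rats had self-administered heroin on a fixed-ratio schedule for 7 days at 1 response and 4 days at 3 responses, took a progressive ratio test on day 12, returned to 3 responses on days 13 and 14, and received saline or the opioid receptor antagonist naloxone after the last session, 1 h before they were killed. Tissue was pooled into 6 libraries that each mixed male and female rats: saline replicates 1, 2 and 3 and naloxone replicates 4, 5 and 6. The heroin history was common to both groups and no heroin-free rats were analysed here. The labels do not say which rats went into which library, so tests measure the spread between these libraries.

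The libraries held 55739350 to 76272798 unique molecular identifiers (UMIs, each 1 captured RNA molecule), and 58960 nuclei at median depths of 4277 to 6506 UMIs were used. Naloxone replicate 5 had the highest median share of mitochondrial UMIs, at 0.557%, against 0.152% in the lowest library. Of 58571 distinct cell barcodes, 388 occurred in more than 1 library. Nuclei were placed in classes by clustering and marker genes, and 12 classes had enough nuclei in each library for a fit. The defining marker was found in 95.1% of nuclei of the Drd2-like spiny class (Drd2), 89.8% of the oligodendrocyte-like class (Mog), 76.3% of the Grm8-like spiny class (Grm8) and 46.0% of the astrocyte-like class (Aqp4). Drd1 itself was found in 24.8% of the Drd1-like spiny class and in 16.1% of the Grm8-like one. After saline the 5 measured of 6 listed Drd1 spiny markers summed to 203 to 230 CPM (UMIs brought to one common total) in the Drd1-like class. They summed to 196 to 212 CPM in astrocyte-like nuclei. The 7 Grm8 spiny markers summed to 1539 to 1591 CPM in the Drd1-like class, so its name is loose. Spiny neurons are the projection neurons of the striatum.

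HSF1 binds repeats of GAA, and inverted pairs of them (GAANNTTC or TTCNNGAA, each its own reverse complement, so that both strands were searched at once) were sought in promoter windows of 250 bases before to 50 bases after the start site, taken from RefSeq on build GRCr8. The counts rest on build mRatBN7.2, so these coordinates are not those of the counted gene models. A window was found for 9 of the 10 genes, all but Hsp90aa1. The pair occurred in 4 of these 9 windows, and in 5305 of 33469 windows of all genes, or 15.9%. The stretches that hold it are shown because 2 of them belong to the genes with the lowest naloxone to saline ratios over all nuclei, Chordc1 and Stip1, and 1 to Cdc37, whose log2 change was positive. Capitals mark the matches, which overlap one another in Chordc1.
Chordc1, chr8:23650827-23650856, plus strand: accgGAACGTTCGGGAAGATTCCTGAAgca
Stip1, chr1:213657655-213657804, minus strand: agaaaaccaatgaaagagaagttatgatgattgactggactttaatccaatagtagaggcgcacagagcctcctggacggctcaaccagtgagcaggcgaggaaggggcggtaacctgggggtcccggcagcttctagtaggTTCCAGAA
Fkbp4, chr4:163397929-163398078, minus strand: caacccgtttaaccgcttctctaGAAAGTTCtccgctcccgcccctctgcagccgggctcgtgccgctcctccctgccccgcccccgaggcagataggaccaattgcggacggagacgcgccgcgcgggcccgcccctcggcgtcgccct
Cdc37, chr8:27966941-27967090, minus strand: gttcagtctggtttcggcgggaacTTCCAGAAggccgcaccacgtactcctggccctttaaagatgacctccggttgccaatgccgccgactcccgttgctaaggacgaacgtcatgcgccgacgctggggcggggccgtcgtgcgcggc

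The Chordc1 stretch held 4 overlapping pairs that began 11, 16, 21 and 26 bases after the start site of the RefSeq window. These make an unbroken array, and the longer form with 3 repeats (GAANNTTCNNGAA or TTCNNGAANNTTC) was present at 3 positions in it. Of the 9 windows only that of Chordc1 held this longer form, which occurred in 267 of 33469 windows, or 0.798%. The single pair began 8 bases before the start in Stip1, 137 before it in Fkbp4 and 136 before it in Cdc37. A match describes the letters and does not show that a factor binds there.

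The naloxone against saline comparison asks which transcripts differed 1 h after the antagonist in rats with one heroin history. Over all nuclei, 9 of the 10 genes had a negative log2 change, and Chordc1 alone fell by the test across all genes (edgeR's quasi-likelihood test, adjusted p under 0.05). Genes called lower made up 0.0115% of the 17348 genes tested. In 7 of the 10, every naloxone library lay below every saline library, as it did for 13.4% of genes of at least 10 CPM (a gene's UMIs per library or class, brought to one common total). The rule chose the genes on this contrast, so nothing is read from either count. DESeq2 called 7 genes lower: Chordc1, Stip1, Fkbp4, Ahsa1, Ahsa2, Hsp90aa1 and Ptges3. Without naloxone replicate 5 edgeR called 7, with Hsp90ab1 (edgeR adjusted p = 0.0248) and without Fkbp4 (0.0513). It called 0 without any other single library, where Chordc1 had adjusted p of 0.0763 to 0.256. No share of all genes called is given for these settings, so nothing is read from their counts.

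Among the chaperones, Hsp90aa1 stood at 116, 113 and 121 CPM in saline replicates 1 to 3 and at 87.8, 90.9 and 88.5 CPM in naloxone replicates 4 to 6, a log2 change of -0.40 ± 0.05 (SE). All naloxone libraries lay under all saline ones, and each group spanned less than the gap between them. Hsp90ab1 had 147, 155 and 165 CPM after saline and 118, 149 and 118 CPM after naloxone (log2 change -0.29 ± 0.09). Naloxone replicate 5 reached into the saline range, the other two did not. Hsp90b1 had 154, 168 and 176 CPM after saline and 151, 154 and 155 CPM after naloxone (log2 change -0.12 ± 0.06), and its groups overlapped.

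Chordc1 encodes a zinc-binding cochaperone of the CHORD family that binds the ATPase domain of HSP90. It had 108, 94.2 and 105 CPM after saline and 61.4, 48.1 and 60.3 CPM after naloxone, a log2 change of -0.86 ± 0.10 (edgeR adjusted p = 0.0461). The lowest saline library was above the highest naloxone one by more than the range within either group. Stip1, also called HOP, bridges HSP70 and HSP90 and passes clients from one to the other. Its levels were 75.1, 65.3 and 69.3 CPM after saline and 46.3, 39.1 and 47.4 CPM after naloxone (log2 change -0.67 ± 0.10). The groups were again apart, with naloxone replicate 5 lowest for both genes.

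Ahsa1 and its paralog Ahsa2 encode activators of the HSP90 ATPase. Ahsa1 had 13.5, 13.3 and 13.1 CPM after saline and 8.94, 8.87 and 9.39 CPM after naloxone, with a log2 change of -0.56 ± 0.08. Ahsa2 had 37.3, 37.7 and 40.1 CPM after saline and 29.0, 24.7 and 29.97 CPM after naloxone, with a log2 change of -0.47 ± 0.09. Neither pair of groups overlapped.

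Fkbp4 encodes FKBP52, an immunophilin of steroid receptor complexes, and Ptges3 encodes p23, which holds HSP90 in its closed, ATP-bound state. Fkbp4 had 21.6, 19.4 and 20.7 CPM after saline and 15.9, 12.3 and 12.4 CPM after naloxone (log2 change -0.61 ± 0.11). For Ptges3 the saline libraries gave 50.1, 48.6 and 54.1 CPM and the naloxone libraries 41.9, 37.5 and 39.6 CPM (log2 change -0.37 ± 0.07). In both genes every naloxone library was below every saline library. Cdc37 encodes the cochaperone that brings kinases to HSP90 and differed from the rest in sign. It had 15.03, 19.2 and 17.2 CPM after saline and 16.9, 23.6 and 16.9 CPM after naloxone (log2 change 0.15 ± 0.14). Its groups overlapped, and naloxone replicate 5 was highest.

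**Figure D1:**
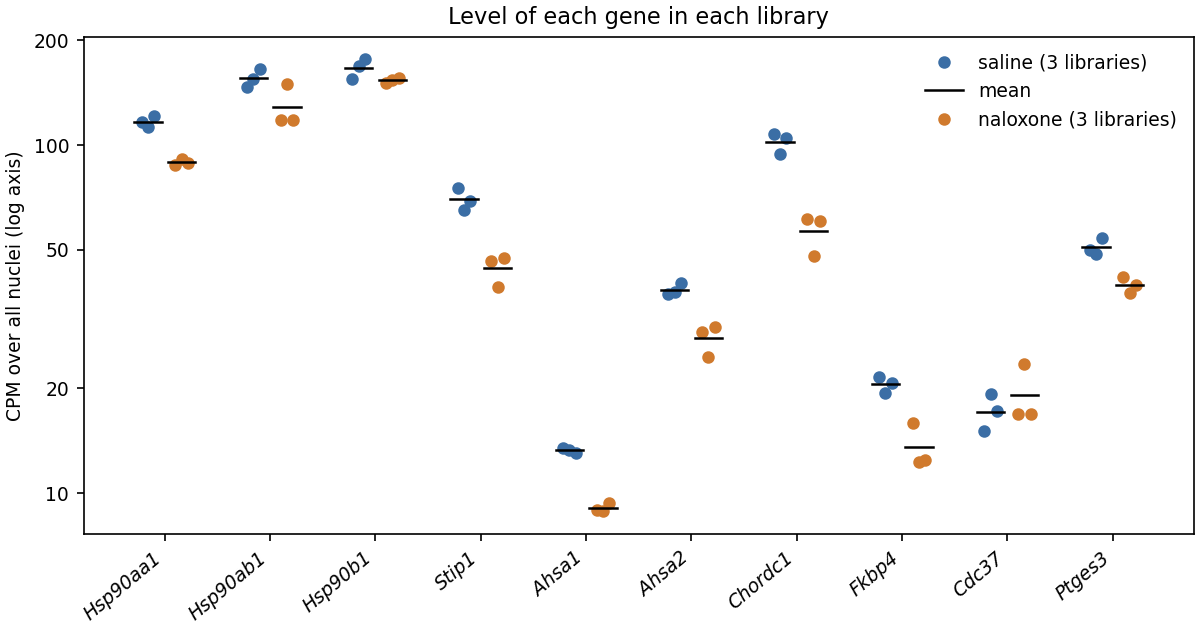
Level of each gene over all nuclei in CPM on a log axis; each point is 1 library (3 saline, 3 naloxone) and each line a group mean. In 7 genes the naloxone points lie below all saline points, while Hsp90ab1, Hsp90b1 and Cdc37 overlap.

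Reads that match a near-identical gene copy may be miscounted. The annotated relatives Hsp90aa1-ps16, Hsp90aa1-ps17, Hsp90ab1-ps13, Ptges3l and Ptges3l1 had mean levels of 0.0344 to 3.68 CPM, far under those of their namesakes. A level per library is an average over all its nuclei, and a change in the mix of classes and a change within them give the same value, so each class was also fitted by itself. Within a class, fewer nuclei with the RNA and less RNA in each cannot be told apart in the sums.

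Across the 12 classes, 20 pairs of gene and class were called lower and none higher. Chordc1 fell in 8 classes, Hsp90aa1 and Stip1 in 4 each, Ahsa2 in 2, and Ahsa1 and Fkbp4 in 1 each. Hsp90ab1, Hsp90b1, Ptges3 and Cdc37 were called in 0 classes by edgeR. DESeq2 called 25 pairs, among which were Hsp90ab1 and Ptges3 in the oligodendrocyte-like class, and no share of all genes is given beside that count. The log2 changes of Chordc1 ran from -1.36 to -0.64 with a median of -0.86, and were negative in 12 of 12 classes. Those of Stip1 (-1.18 to -0.48), Hsp90aa1 (-0.96 to -0.08), Hsp90ab1 (-0.85 to -0.16) and Ptges3 (-0.89 to -0.11) were also negative in 12 of 12. For Ahsa2 this held in 11 of 11 classes tested, for Fkbp4 in 9 of 9, for Ahsa1 in 6 of 7, for Hsp90b1 in 10 of 12 and for Cdc37 in 4 of 10. All classes come from the same 6 libraries, so their signs are not independent and nothing is read from these counts.

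The classes and their shares of all genes called lower were as follows. In Drd1-like spiny nuclei 2 of the 10 genes were called, beside 0.0883% of all genes tested. Drd2-like spiny nuclei had 3 of 10 beside 0.238%, Grm8-like spiny nuclei 2 of 10 beside 0.0482%, and other GABAergic interneuron-like nuclei 1 of 10 beside 0.0206%. Astrocyte-like nuclei had 4 of 10 beside 0.191%, oligodendrocyte-like nuclei 5 of 10 beside 0.221%, oligodendrocyte precursor-like nuclei 2 of 10 beside 0.0409% and microglia-like nuclei 1 of 9 beside 0.0813%. In somatostatin interneuron-like nuclei 0 of 9 were called beside 0.0137%, with 5 at an unadjusted p under 0.05. Cholinergic interneuron-like, committed oligodendrocyte precursor-like and endothelial-like nuclei had 0 of 8, 0 of 7 and 0 of 6, where edgeR called 0% of all genes lower. Unadjusted p were under 0.05 for 5, 2 and 2 of the genes there, and DESeq2 called 0 in these 4 classes. No share of all genes is given beside the unadjusted counts or the calls with no filter that follow, so nothing is read from them. With no filter on low counts edgeR called Hsp90aa1 (adjusted p = 0.00818), Chordc1 (0.00915) and Stip1 (0.0136) in somatostatin interneuron-like nuclei, Chordc1 in committed oligodendrocyte precursor-like nuclei (0.0054), and 0 in the other two.

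**Figure D2:**
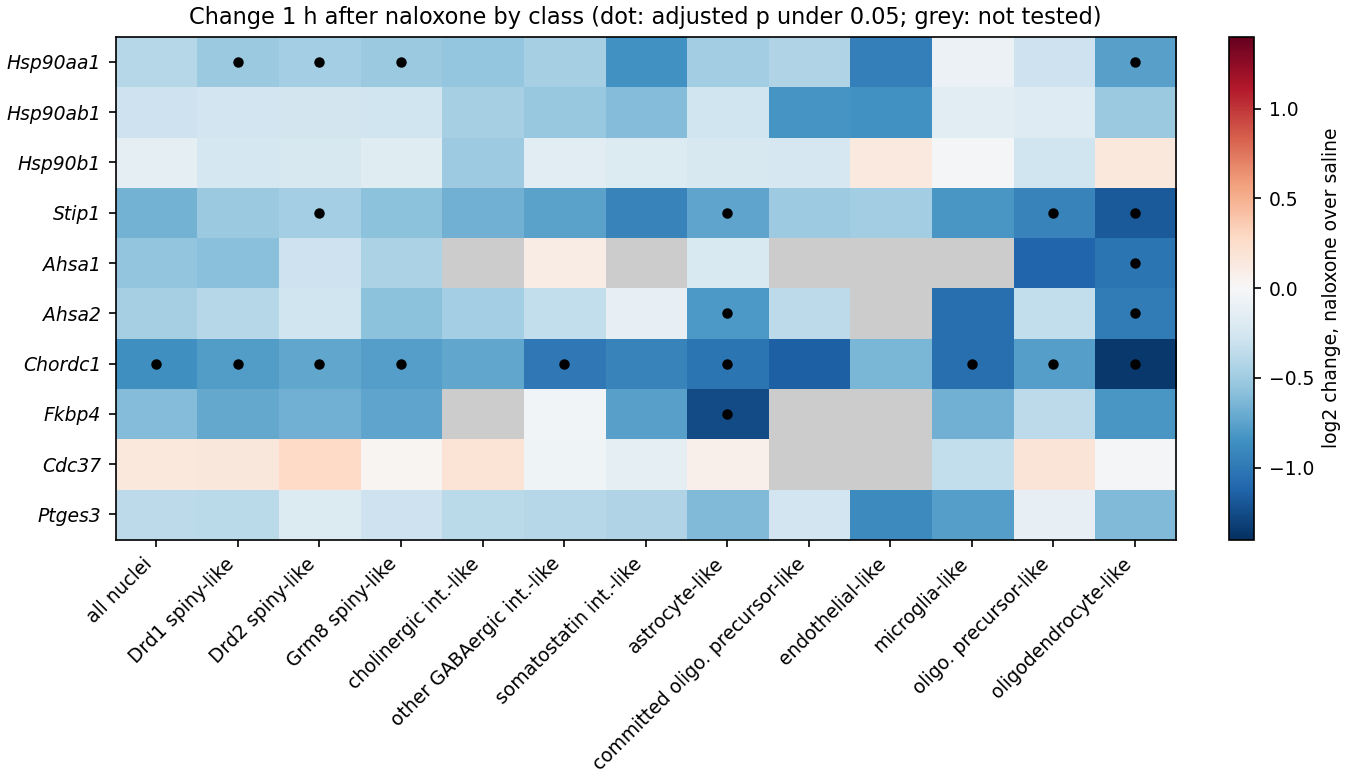
Log2 change, naloxone over saline, of each gene (rows) over all nuclei and in 12 classes (columns); blue is lower after naloxone, dots mark an edgeR adjusted p under 0.05 and grey cells were too low to test. The Chordc1 row carries 9 dots, 8 of them in classes, and the Cdc37 row none.

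In the Drd1-like spiny class Hsp90aa1 had 76.1, 75.1 and 71.8 CPM after saline and 51.8, 53.9 and 50.8 CPM after naloxone (log2 change -0.52 ± 0.07). Chordc1 had 88.1, 77.7 and 81.4 CPM after saline against 52.1, 39.8 and 51.9 CPM after naloxone (log2 change -0.79 ± 0.11). Both genes fell and left a clear gap between the groups. In this class 8 of the 10 genes had all naloxone libraries lowest, beside 12.8% of genes of at least 10 CPM. Both calls were lost without saline replicate 1, 2 or 3 or naloxone replicate 4 (edgeR adjusted p of up to 0.136), and in the nuclei gated directly on 3 or more markers, which held 4.26% of the class.

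Drd2-like spiny nuclei gave values close to these. Hsp90aa1 had 80.1, 80.0 and 76.6 CPM after saline and 58.7, 55.4 and 54.1 CPM after naloxone (log2 change -0.48 ± 0.08). For Chordc1 the saline libraries gave 81.4, 79.5 and 79.0 CPM and the naloxone libraries 50.8, 44.5 and 47.6 CPM (log2 change -0.73 ± 0.08). The Chordc1 call in this class was kept without each of the 6 libraries. Stip1 fell from 53.0, 47.4 and 52.3 CPM to 38.8, 35.3 and 34.2 CPM (log2 change -0.48 ± 0.09), and the call was kept only without naloxone replicate 4. The direct gate kept the call of Chordc1 in this class and lost those of Stip1 and Hsp90aa1. In the Grm8-like spiny class Chordc1 had 98.3, 98.7 and 96.9 CPM after saline and 62.9, 47.2 and 61.5 CPM after naloxone, and Hsp90aa1 fell by 0.51 ± 0.08 on the log2 scale. The calls of Hsp90aa1 in Drd2-like and of Chordc1 in Grm8-like nuclei were lost without any 1 of the saline libraries (edgeR adjusted p of up to 0.0878), and that of Hsp90aa1 in Grm8-like nuclei was kept only without naloxone replicate 5.

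In astrocyte-like nuclei Fkbp4 had 28.8, 26.3 and 30.2 CPM after saline and 13.8, 13.7 and 8.06 CPM after naloxone, from 20 to 67 UMIs a library (log2 change -1.25 ± 0.23). Ahsa2 stood at 67.8, 72.2 and 66.8 CPM after saline and at 33.7, 41.0 and 41.1 CPM after naloxone (log2 change -0.80 ± 0.14). The groups were apart in both. Chordc1 fell from 141, 115 and 114 CPM to 59.2, 46.5 and 69.3 CPM, and Stip1 from 85.7, 69.8 and 74.5 CPM to 34.2, 47.0 and 52.0 CPM. The call of Chordc1 was kept without each of the 6 libraries. Those of Stip1, Ahsa2 and Fkbp4 were lost without any 1 saline library, those of Stip1 and Ahsa2 also without naloxone replicate 4, and that of Fkbp4 without naloxone replicate 6. These 3 calls were also lost in the directly gated nuclei, where that of Chordc1 was kept. The 6 microglia markers of the 7 listed that were measured summed to 28.8 to 38.8 CPM in astrocyte-like nuclei after saline. After naloxone they summed to 43.5 to 48.6 CPM, with none at 0. The astrocyte markers summed to 11338 to 11779 CPM against 12662 to 12943 CPM, though 4 of the 7 had a lower mean after naloxone. Somatostatin interneuron and glutamatergic neuron sums were also apart and higher after naloxone, and the endothelial sum was apart and lower. The part of these markers in the values was not tested.

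Oligodendrocyte-like nuclei had the most calls. Chordc1 had 199.8, 146 and 189 CPM after saline and 77.9, 46.3 and 81.8 CPM after naloxone (log2 change -1.36 ± 0.20). Stip1 had 139, 101 and 112 CPM after saline and 54.2, 41.3 and 58.1 CPM after naloxone (log2 change -1.18 ± 0.16). Naloxone replicate 5 was the lowest library for both genes.

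Ahsa1 fell from 35.2, 27.8 and 25.8 CPM to 15.7, 13.1 and 13.9 CPM in the same class, from 31 to 125 UMIs a library (log2 change -1.03 ± 0.19). Ahsa2 fell from 105, 85.9 and 103 CPM to 47.1, 43.4 and 58.4 CPM (log2 change -0.98 ± 0.15). Hsp90aa1 fell from 279.8, 260.1 and 253 CPM to 141, 168 and 164 CPM (log2 change -0.76 ± 0.11), a call lost in the directly gated nuclei (log2 change -0.49 ± 0.10, edgeR adjusted p = 0.075). The ER paralog went the other way in sign: Hsp90b1 had 243, 329 and 268 CPM after saline and 288, 357 and 294 CPM after naloxone (log2 change 0.15 ± 0.12), with overlapping groups. In this class 8 of the 10 genes had every naloxone library below every saline one, beside 11.3% of genes of at least 10 CPM. The calls of Chordc1, Stip1 and Hsp90aa1 were kept without each of the 6 libraries, that of Ahsa2 was lost without saline replicate 3, and that of Ahsa1 without any 1 saline library or naloxone replicate 6.

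The oligodendrocyte-like class was made up of 3 clusters whose shares moved with treatment. The largest held 83.1% to 84.7% of the class in saline libraries and 5.24% to 46.7% in naloxone libraries, the next 1.05% to 2.71% against 37.8% to 86.2%, and the smallest 13.5% to 14.4% against 8.51% to 15.5%. Naloxone replicate 5 had the lowest share of the first. Within the smallest cluster, chosen after its values were seen because its share overlapped between groups, Chordc1 had 158, 109 and 163 CPM after saline and 70.2, 25.1 and 68.7 CPM after naloxone. Within the largest it had 211, 154 and 197 CPM after saline against 90.3, 28.4 and 114 CPM after naloxone, with 90 nuclei in naloxone replicate 5. That library's 28.4 CPM rests on 3 UMIs. In these clusters every naloxone library was below every saline library. In the remaining cluster, whose share was higher after naloxone, Chordc1 had 152 and 132 CPM in saline replicates 2 and 3, from 42 and 60 nuclei, and 67.6, 49.7 and 60.4 CPM after naloxone. Saline replicate 1 had 14 nuclei there and 0 UMIs, which allows up to 168 CPM (3 counts, counting error only), so the groups could not be ordered. Committed oligodendrocyte precursor markers summed to 2305 to 2338 CPM in the class after saline and 2418 to 2685 CPM after naloxone (5 of 5 measured, none at 0). Of these 5 markers, 4 had a lower mean after naloxone. Somatostatin interneuron markers summed to 19.4 to 21.1 CPM against 32.8 to 38.3 CPM (5 of 5, none at 0), with 1 lower in mean. Sums of oligodendrocyte, other GABAergic interneuron and endothelial markers were also apart between groups and higher after naloxone. The part of these markers in the values was not tested.

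**Figure D3:**
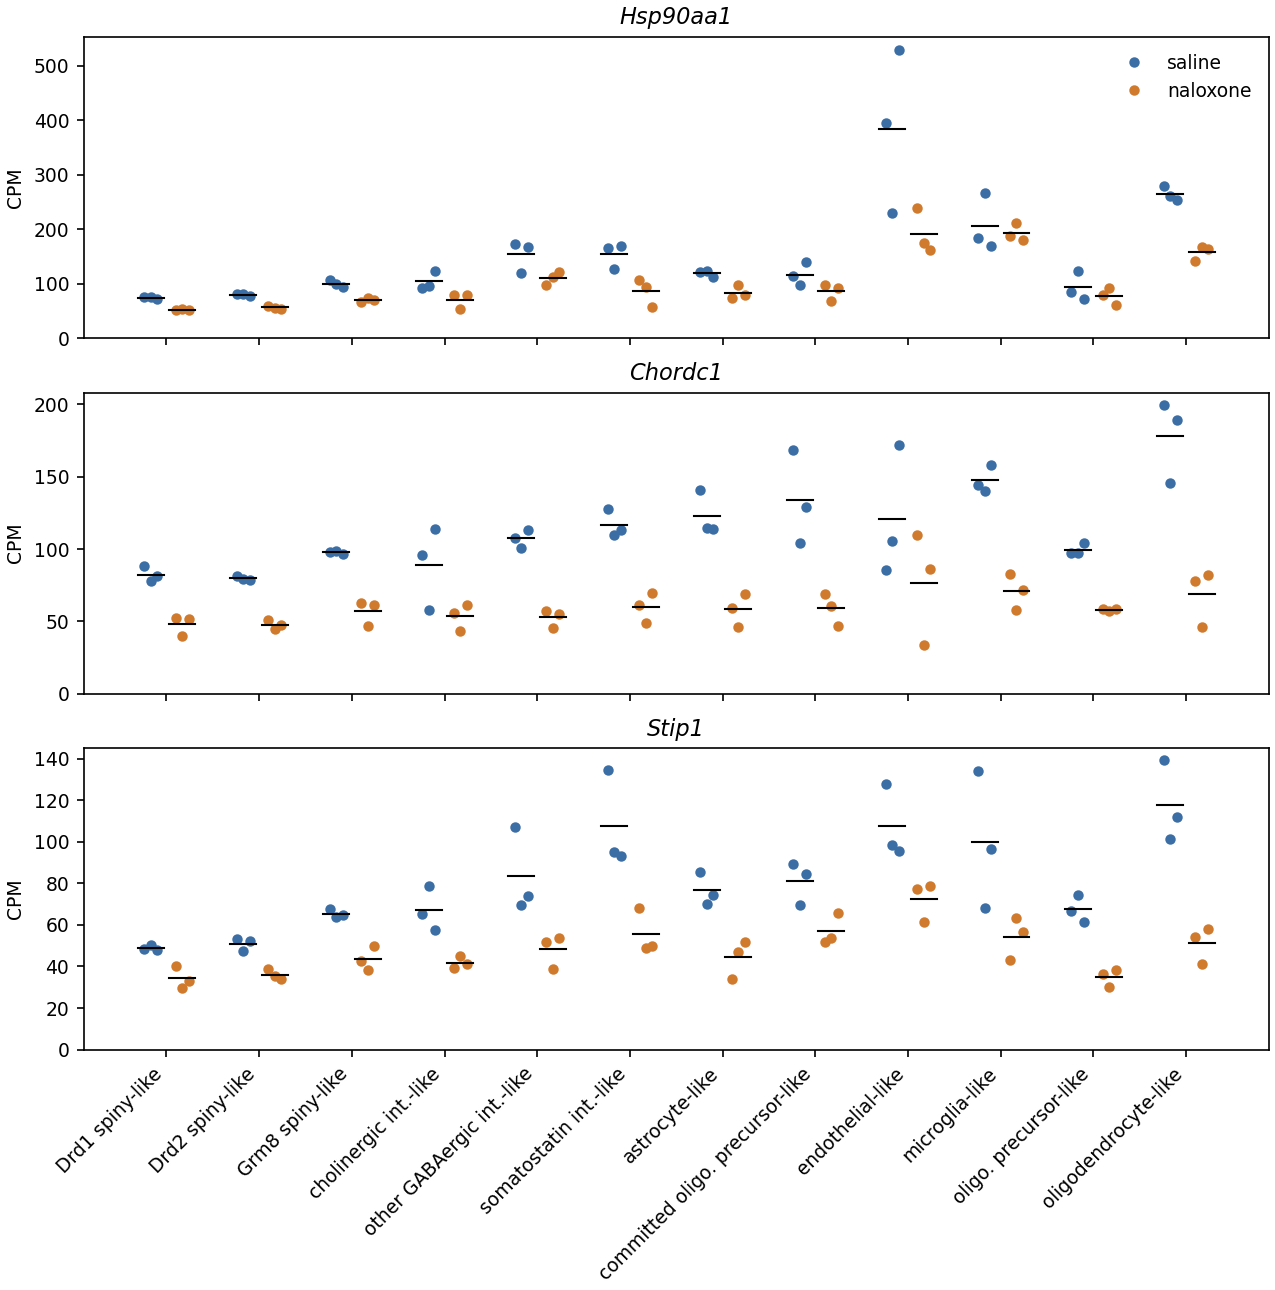
CPM of Hsp90aa1, Chordc1 and Stip1 in each of 12 classes; points are libraries (blue saline, orange naloxone) and lines group means. The saline and naloxone points of Chordc1 are apart in 10 classes and overlap in the cholinergic interneuron-like and endothelial-like classes, and those of Hsp90aa1 overlap in the endothelial-like, microglia-like, other GABAergic interneuron-like and both precursor-like classes.

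In microglia-like nuclei Chordc1 had 144, 140.0 and 158 CPM after saline and 83.1, 57.7 and 72.0 CPM after naloxone, from 20 to 72 UMIs a library. The groups were apart. Without any 1 library other than naloxone replicate 6 the adjusted p of this call was 0.0648 to 0.387. Hsp90aa1 had 184, 266 and 169 CPM there after saline and 188, 211 and 180.0 CPM after naloxone, with overlapping groups. In oligodendrocyte precursor-like nuclei Chordc1 had 97.6, 97.0 and 104 CPM after saline and 58.5, 57.3 and 58.7 CPM after naloxone, and Stip1 had 66.6, 74.4 and 61.6 CPM against 36.5, 30.01 and 38.2 CPM. The first call was lost without saline replicate 1 or 3, the second without any 1 saline library or naloxone replicate 5. In other GABAergic interneuron-like nuclei Chordc1 had 108, 101 and 113 CPM after saline and 57.4, 45.8 and 55.2 CPM after naloxone. Its call there was kept without each of the 6 libraries. Directly gated nuclei gave no call in the microglia-like, oligodendrocyte precursor-like and other GABAergic interneuron-like classes.

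A change called in one class and not in another does not show a difference, so an interaction of class and treatment was fitted, with the library as a block and Drd1-like spiny nuclei as the reference. None of the 10 genes was called by edgeR in any of 3 such fits, which called 1.6% of all genes for Drd2-like spiny nuclei, 0.235% for astrocyte-like nuclei and 0.458% for oligodendrocyte-like nuclei. At an unadjusted p under 0.05 there were 0, 2 and 7 of the 10, beside 1412 of 13645, 1119 of 14035 and 1274 of 13978 genes tested. The counts of the 10 were the same with another set of normalization factors. As the genes were chosen on the naloxone contrast, nothing is read from these counts. DESeq2 was not run on this term. In oligodendrocyte-like nuclei the log2 change of Stip1 minus that in Drd1-like nuclei was -0.67 ± 0.15 (SE, edgeR adjusted p = 0.0772) and that of Chordc1 -0.59 ± 0.13 (edgeR adjusted p = 0.0716). For Hsp90b1 this difference was 0.40 ± 0.12 (edgeR adjusted p = 0.229). Leaving out saline replicate 2 gave 2 calls in the oligodendrocyte-like fit and leaving out naloxone replicate 6 gave 1. For Drd2-like nuclei the differences ran from 0.01 ± 0.06 for Hsp90ab1 to 0.19 ± 0.10 for Ptges3 and 0.29 ± 0.20 for Ahsa1, with 0.06 ± 0.08 for Chordc1.

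The share of nuclei with at least 1 UMI restates the same counts of the same libraries, so it is not separate support. No share of all genes is given beside it. As counted, Chordc1 was detected in 41.9% ± 6.43 of nuclei after saline and 27.5% ± 7.30 after naloxone (SD, n = 3 libraries each). After thinning of each nucleus to 1000 UMIs, for which 5.34% of saline and 6.20% of naloxone nuclei were too shallow, the shares were 10.6% ± 0.834 and 5.85% ± 0.975. In oligodendrocyte-like nuclei the thinned shares were 15.7% ± 2.17 and 6.63% ± 2.15. Hsp90aa1 was found in 12.9% ± 0.671 of thinned nuclei after saline and 9.61% ± 0.107 after naloxone. No class here lacks these genes by biology, so no share of background from free RNA could be set beside these values.

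Levels by class, which had no part in the choice of the genes, were compared within libraries. Each level is a mean over the 6 libraries of both groups with its SD, and the places given hold for CPM. Counted as UMIs per nucleus, Hsp90aa1 was highest in cholinergic interneuron-like nuclei (1.30 ± 0.555), with 0.782 ± 0.429 in endothelial-like ones. On that scale microglia-like (0.276 ± 0.0330) and astrocyte-like nuclei (0.279 ± 0.0727) were lowest. The levels that follow are CPM. Hsp90aa1 was highest in endothelial-like nuclei (288 ± 145 CPM), followed by oligodendrocyte-like (211 ± 59.98), microglia-like (199.5 ± 35.2), other GABAergic interneuron-like (132 ± 31.01) and somatostatin interneuron-like nuclei (119.7 ± 43.1). Committed oligodendrocyte precursor-like, astrocyte-like, cholinergic interneuron-like, oligodendrocyte precursor-like and Grm8-like spiny nuclei lay between 84.7 and 101 CPM, and Drd2-like (67.5 ± 12.7) and Drd1-like spiny nuclei (63.2 ± 12.3) were lowest. Microglia-like nuclei were above other GABAergic ones in every library, as were Grm8-like above Drd2-like and Drd2-like above Drd1-like spiny nuclei. None of these neighbours passed the test after adjustment (exact permutation test by sign flips, two-sided, n = 6 libraries, adjusted p = 0.264). The means of the same libraries set the order, and the smallest unadjusted p that 6 libraries allow is 0.03125. Nothing is therefore read from this test about the order. The CPM places above depend on the group. After saline oligodendrocyte-like nuclei (264 ± 13.7 CPM) came second to endothelial-like ones. After naloxone microglia-like nuclei (193 ± 15.9 CPM) and endothelial-like nuclei (191 ± 41.7 CPM) were nearly level at the top. Oligodendrocyte-like nuclei, at 157 ± 14.6 CPM, were below them.

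Hsp90ab1 was also highest in endothelial-like nuclei (540 ± 307 CPM) and lowest in Drd1-like spiny nuclei (95.4 ± 12.4 CPM). Its endothelial-like level ranged from 274 to 1103 CPM between libraries, so its place at the top is loose. Hsp90b1 had its highest level in microglia-like nuclei, at 608 ± 46.5 CPM. This was above the next class, endothelial-like nuclei at 315 ± 64.5 CPM, in 6 of 6 libraries. In UMIs per nucleus microglia-like nuclei had 0.861 ± 0.190 of Hsp90b1, below Drd1-like spiny nuclei (1.08 ± 0.283). Other GABAergic interneuron-like nuclei were highest on that scale, at 1.97 ± 0.648. The places that follow are again for CPM. Averaged over both groups, microglia-like nuclei were also highest for Fkbp4 (39.6 ± 14.1 CPM) and Cdc37 (37.6 ± 9.77 CPM), endothelial-like nuclei for Stip1 (89.95 ± 22.99 CPM), Ahsa1 (22.4 ± 8.41 CPM) and Ptges3 (127 ± 59.2 CPM), and oligodendrocyte-like nuclei for Ahsa2 (73.8 ± 27.7 CPM) and Chordc1 (124 ± 63.9 CPM). The highest class was the same in saline and naloxone libraries for 4 genes, Hsp90ab1, Hsp90b1, Fkbp4 and Ptges3, and another one for the other 6. Several of these 6 changes rest on near ties after naloxone, as for Cdc37 (endothelial-like 34.0 ± 5.48 CPM, microglia-like 33.6 ± 11.3 CPM), and none was tested. For Stip1 the classes were further apart (endothelial-like 72.5 ± 9.50 CPM, committed oligodendrocyte precursor-like 57.2 ± 7.58 CPM). Oligodendrocyte-like nuclei were highest for Chordc1 (178 ± 28.7 CPM), Stip1, Ahsa1 and Ahsa2 after saline and for no gene after naloxone. After naloxone endothelial-like nuclei led for Chordc1 (76.6 ± 38.99 CPM), with microglia-like nuclei next (70.9 ± 12.8 CPM). Somatostatin interneuron-like nuclei then led for Ahsa2 (51.8 ± 16.8 CPM), with oligodendrocyte-like nuclei next (49.6 ± 7.83 CPM). The lowest class was Drd1-like or Drd2-like spiny in 10 genes after saline and in 8 after naloxone, where cholinergic interneuron-like nuclei were lowest for Hsp90ab1 and Ahsa1. Over both groups the ratio of the top to the lowest class ran from 1.94 for Chordc1 to 5.96 for Hsp90b1. No test of this ratio is used here, since the means chose both classes. Of 110 pairs of neighbours in these orders, 13 had the same sign in every library, and 13 had an unadjusted p under 0.05. After adjustment 0 passed the exact permutation test, which with 6 libraries and 110 pairs gave 0.264 at best. As the means chose the neighbours too, this test cannot decide their order.

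All 10 genes had lower CPM in the 3 spiny classes than in the 4 glial classes (astrocyte-like, oligodendrocyte-like, oligodendrocyte precursor-like and microglia-like) in 6 of 6 libraries, while counted as UMIs per nucleus all 10 were higher in the spiny classes in 6 of 6. The exact permutation p was 0.03125 for each gene on both scales, the smallest that 6 libraries allow. On the CPM scale this order is common, holding for 62.9% of 9621 genes of at least 10 CPM, and on the scale of UMIs per nucleus the reverse order held for 84% of them. Nuclei of the spiny classes were deeper, with medians of 6298.5 to 9098.5 UMIs against 1615 in oligodendrocyte-like nuclei. The CPM ratio of spiny to glial classes was lowest for Ahsa2 (0.313), Hsp90b1 (0.334) and Fkbp4 (0.426), and highest for Stip1 (0.682) and Chordc1 (0.684). In UMIs per nucleus the spiny classes had 0.640 ± 0.173 of Hsp90aa1 against 0.307 ± 0.0587 in glia, and 0.418 ± 0.127 of Stip1 against 0.154 ± 0.0637. The ratios on that scale ran from 1.21 for Ahsa2 to 2.72 for Stip1.

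**Figure D4:**
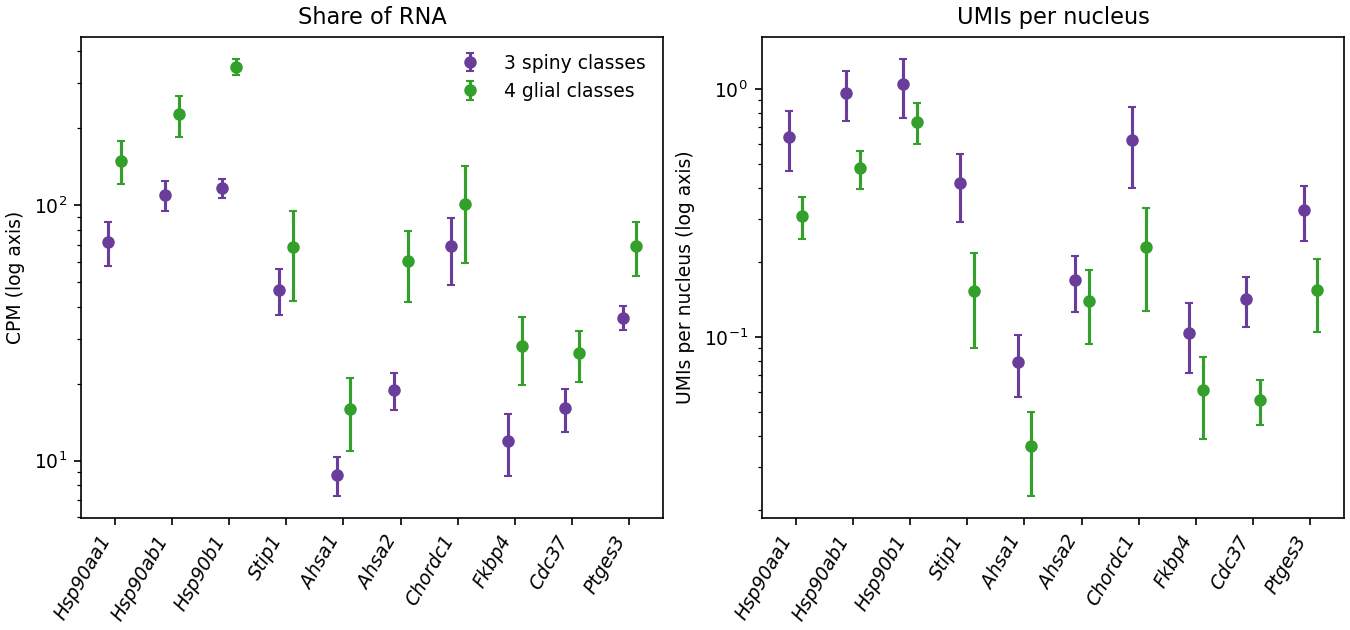
Mean level of each gene in the 3 spiny and 4 glial classes as CPM (left) and UMIs per nucleus (right), both on log axes; bars are the SD over 6 libraries. Every gene is lower in spiny classes as CPM and higher as UMIs per nucleus.

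A cluster of 1407 nuclei with a median mitochondrial share of 2.47% and 1500 UMIs, which stayed unnamed, stood out for the cytosolic chaperones and was chosen after its values were seen. Its Hsp90aa1 level was 1011, 982 and 1137 CPM in the saline libraries and 1124, 923 and 818 CPM in the naloxone libraries. Hsp90ab1 had 1220, 1045 and 1082 CPM after saline and 1145, 1174 and 904 CPM after naloxone. The mean of both lay above the mean of every named class, although the endothelial-like class reached 1103 CPM of Hsp90ab1 in 1 library, and in both the groups overlapped. Chordc1 in the same cluster had 98.9, 132 and 139.8 CPM after saline and 49.9, 93.0 and 109 CPM after naloxone, also overlapping. The part of RNA quality in these levels was not tested.

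Nuclei were sorted by sex from their Xist and Y-linked UMIs into 23690 female and 18853 male ones. Another 11939 nuclei were classed as neither and 4478 as both. In the oligodendrocyte-like class 5141 of 11505 nuclei were classed as neither. Female and male nuclei were compared within libraries. None of the 10 genes was called by edgeR over all nuclei, where 0.0913% of all genes were called. The same held in Drd1-like (0.0786% of genes called) and Drd2-like spiny nuclei (0.0762%) and in astrocyte-like (0.118%) and oligodendrocyte-like nuclei (0.0967%). In each of these 5 fits 0 of the 10 had an unadjusted p under 0.05, and DESeq2 called 0. Over all nuclei the difference, female minus male, was largest for Fkbp4 at 0.24 ± 0.13 on the log2 scale (SE; 18.4 against 15.1 CPM, higher in females in 4 of 6 libraries). Chordc1 differed by 0.06 ± 0.12 and Stip1 by 0.02 ± 0.11. Each of these differences was under 2 SE, and the female and male values were not shown to be alike.

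**Figure D5:**
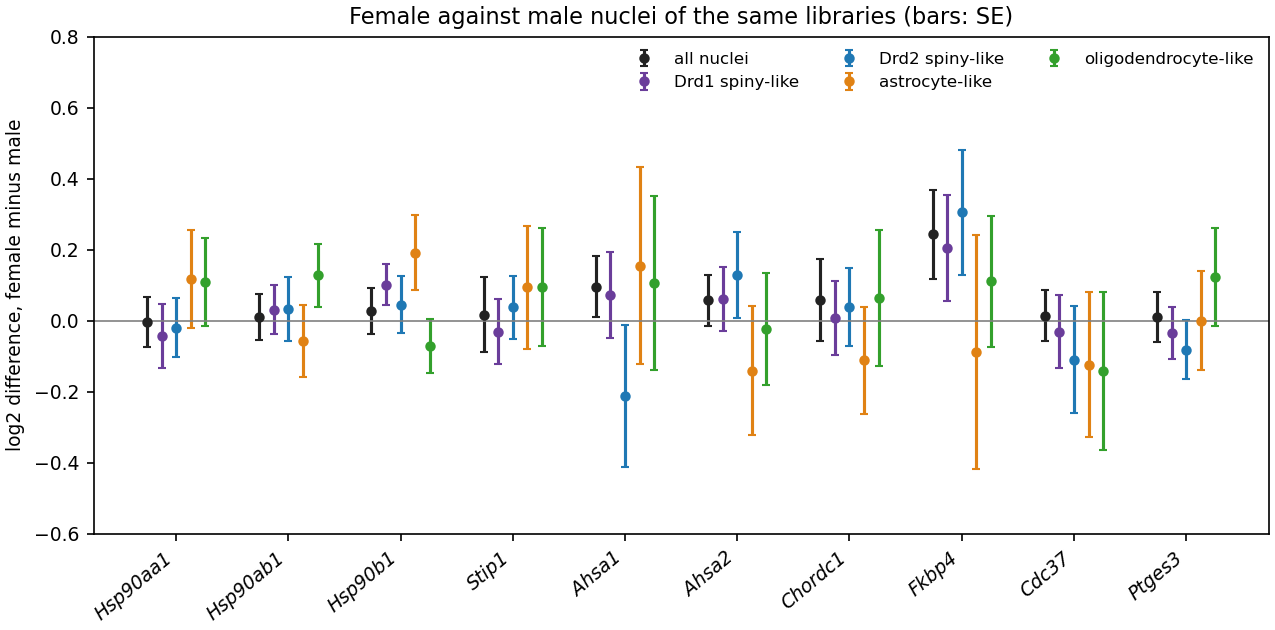
Log2 difference between female and male nuclei of the same 6 libraries for each gene over all nuclei and in 4 classes; points are edgeR estimates and bars their SE. None of the points was called, and that of Fkbp4 over all nuclei lies at 0.24.

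Genes whose level over the 12 classes followed that of a member most closely in the saline libraries were sought among 9685 genes. For Hsp90aa1 these were Ccdc47 (Pearson r = 0.967), Hsp90ab1 (0.960) and Tpr (0.950). For Hsp90ab1 they were Ubb (0.975), Cox6a1 (0.961) and Hsp90aa1 (0.960), and for Chordc1 they were Daxx (0.959), Ube2z (0.955) and Lamtor2 (0.953). The classes share libraries and differ in depth, so these values only describe.

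Other genes of the chaperone network were taken from 4 lists, and the median log2 change over all nuclei was -0.43 in the 10 genes and 0.01 in all 17348 genes tested. Of the other HSP90 cochaperones, 29 of 30 were tested and 0 were called by edgeR over all nuclei, with a median of 0.01. Fkbp5 encodes FKBP51, a cochaperone of the glucocorticoid receptor and a classic target of that receptor, and it was called higher in 4 classes. It rose in microglia-like nuclei from 137 ± 9.08 to 679 ± 213 CPM (SD, log2 change 2.32 ± 0.21 SE), in astrocyte-like nuclei from 20.1 ± 3.14 to 147 ± 106 CPM, in oligodendrocyte-like nuclei from 48.7 ± 2.37 to 194 ± 111 CPM and in oligodendrocyte precursor-like nuclei from 17.7 ± 6.93 to 62.3 ± 29.5 CPM. It thus went opposite to its paralog Fkbp4, which fell in astrocyte-like nuclei.

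HSF1 and classic heat shock genes, a list of 22, had a median of -0.27 over all nuclei. Dnaja1, a J-domain partner of HSP70, was the 1 gene of this list called over all nuclei, at 93.1 ± 1.99 CPM after saline and 62.4 ± 3.63 CPM after naloxone (log2 change -0.58 ± 0.07), and it fell in 5 classes. Hsph1, a nucleotide exchange factor of HSP70, fell in 7 classes, from 162 ± 21.7 to 58.1 ± 9.61 CPM in oligodendrocyte-like nuclei and from 96.6 ± 4.996 to 44.8 ± 4.26 CPM in oligodendrocyte precursor-like nuclei. In oligodendrocyte-like nuclei all 19 genes of the list that were tested had negative log2 changes, with a median of -0.41, and 6 were called lower, beside 0.221% of all genes. Over all genes tested in that class the share with a negative change was 50.6%. This list, like the others, was chosen with earlier results of these data known, so nothing is read from these counts.

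The endoplasmic reticulum partners of GRP94, 22 genes, had a median of -0.08 over all nuclei, with 0 called by edgeR. In oligodendrocyte-like nuclei their median was 0.15, and 3 of 22 had a negative change, with 0 called. Of the steroid receptor genes whose proteins HSP90 holds, 6 were tested over all nuclei and 0 were called by edgeR, with a median of 0.07. No list was tested as a set.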

How the data were processed

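RNA of single nuclei was measured in 6 libraries, 3 saline and 3 naloxone. The deposited values are raw UMI counts per gene and barcode, made by the authors with Cell Ranger 9.0.1 per the file headers. The submitters' processing notes name build mRatBN7.2, Seurat 5.2.1 and R 4.4.0, and the annotation release and the use of intron reads are not given in the sources used here. The labels state 44592 nuclei, and the files hold 64260 barcodes.

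From these counts, barcodes under 500 genes or over 5% mitochondrial UMIs were dropped (61609 passed), and 2649 called doublets (4.30%, at an expected 0.4% per 1000 nuclei) were removed, which left 58960. Nuclei were clustered with scanpy 1.11.5 and leidenalg 0.10.2 on 3000 variable genes without the 10 members and the other listed chaperone network genes (40 principal components, 15 neighbours, resolution 1, 39 clusters). Classes were rebuilt from marker lists and called "-like". A cluster was left out as mixed where over 15% of its nuclei carried both female and male transcripts, which held 5270 nuclei, and 11997 nuclei stayed unnamed. Both kinds entered the values over all nuclei. A class needed 20 nuclei in each library. The markers Tac1, Chat, Slc18a3, Itgam, Slco1a4 and Ccdc153 and the cochaperone St13 were not analysed here, and 289 symbols shared by several genes were kept as separate rows.

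Counts were summed per library, or per library and class, and fitted with edgeR 4.0.16 (R 4.3.3) by its quasi-likelihood F-test with TMM factors, filterByExpr and Benjamini-Hochberg adjustment over all genes tested, at a threshold of 0.05; the fit was tested on simulated data. Levels are CPM computed from these sums, and log2 changes are edgeR estimates, each with an SE taken as its size over the square root of its F statistic. DESeq2 1.42.0, other normalization factors, no filter on low counts, at least 1000 genes per nucleus, kept doublets, a direct gate on 3 markers and each library left out were alternatives. All 10 members were named. Genes of the other lists were named where they were called over all nuclei or in at least 3 classes, and the 3 genes most alike in class pattern were named for 3 members. The members and all lists were chosen with earlier results of these data known. The library is the replicate, and the labels name no batch and no pairing.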

Additional observations from a re-analysis of the deposited data

How the results depend on the processing

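Over all nuclei edgeR called 1 of the 10 genes. DESeq2 called 7, no filter on low counts gave 4, at least 1000 genes per nucleus gave 0, and 0 were called with the clusters of mixed sex left out, a setting added once the data had been seen. Leaving out 1 library at a time gave 0 to 7, with 7 only without naloxone replicate 5. Over the 12 classes there were 20 calls, 25 with DESeq2 and 39 with no filter on low counts. With 1 library left out there were 6 to 22. The saline replicates gave 7, 10 and 6 when dropped in turn, the naloxone replicates 14, 22 and 17. Shares of all genes called are not given for these alternative settings, so a larger or smaller count is not read as a result about these genes. The direct marker gate gave 8 calls in the 10 classes where it could be fitted, and was not run over all nuclei or in endothelial-like and somatostatin interneuron-like nuclei. The interaction of class and treatment gave 0 calls, and 0 to 2 with 1 library left out. All 10 genes were lower in spiny than in glial classes as CPM and 0 were as UMIs per nucleus, a scale also added later. The share of saline nuclei with a Chordc1 UMI was 10.6% thinned to 1000 UMIs, 18.6% thinned to 2000 and 41.9% as counted. The comparison of sexes gave 0 calls in each setting run. The order of neighbouring classes gave 0 calls, also with a pseudocount of 5, in a test that could not decide it, as said above. With 1 library left out its smallest p is 0.0625, so those runs could call nothing. None of the 21 called log2 changes was reversed in any setting run. With 1 library left out, 69 such values stayed past the threshold and 57 did not. The cause of these changes was not tested. No paired analysis was possible because the groups share no replicate numbers.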
